A study of Rattus norvegicus with 8 samples.

Results

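Aminotransferases move an amino group from an amino acid to a keto acid, and 9 of their genes, Got1, Got2, Gpt, Kyat1, Kyat3, Bcat1, Bcat2, Oat and Tat, were followed here in the fetal rat testis. They were chosen by enzyme class, but with the log2 differences between DBP and vehicle arrays already known, so those differences are given as a description and no weight is placed on their p-values. All 9 genes had at least 1 probe set naming a single gene, and together they had 11 of the 31042 probe sets tested, or 9 of the 14217 genes the array could name. No filter on signal was applied, so every member entered the fit. Testes came from Fischer 344 fetuses at gestational day 20, on 8 Affymetrix arrays with 1 array per sample. In the vehicle group (n = 4) dams received corn oil alone, 1 ml/kg, and in the DBP group (n = 4) they received 50 mg/kg dibutyl phthalate, a plasticizer known for its effects on the fetal testis, in the same volume of oil. Both groups were dosed once daily by oral gavage from gestational day 12 to 20, and testes were taken 6 h after the last dose. The labels name no dam or litter, so the spread between arrays may be partly technical. It also cannot be said whether the 4 arrays of a group are independent.

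The enzymes share the cofactor pyridoxal phosphate and mostly use glutamate and 2-oxoglutarate as the other donor and acceptor. Got1 in the cytosol and Got2 in mitochondria interconvert aspartate and oxaloacetate and together drive the malate-aspartate shuttle, which carries reducing equivalents into mitochondria. Gpt handles alanine, Kyat1 and Kyat3 turn kynurenine into kynurenic acid and also transaminate glutamine, and Bcat1 (cytosol) and Bcat2 (mitochondria) start the breakdown of leucine, isoleucine and valine. Oat links ornithine to glutamate and proline in mitochondria, and Tat opens tyrosine breakdown, a reaction best known from liver. On a whole-organ array a larger number of cells of a type and more RNA per cell cannot be told apart.

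Of the 9 genes, Got1 and Kyat3 were higher after DBP by the fit across all probe sets, and no member was lower. This count of 2 of 9 compares with 1.22% of all named genes called in either direction at a Benjamini-Hochberg adjusted p under 0.05 (limma, over all probe sets), 0.598% higher and 0.626% lower; since the genes were picked with this contrast known, nothing is read from it. The 4 DBP arrays lay above the 4 vehicle arrays, without overlap, for 3 genes, Got1, Kyat3 and Bcat2. Among all named genes 7.31% lay entirely above and 12.9% did not overlap in either direction. Before adjustment p was under 0.05 for the same 3 members and for 19.1% of all named genes. The median difference over the 9 genes was 0.08 on the log2 scale, against 0.02 over all named genes.

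The sequences before the annotated starts of the members that passed, Got1 and Kyat3, are given here with that of Got2, the mitochondrial partner of Got1, which did not pass. They come from RefSeq, build GRCr8, are written 5′ to 3′ on the gene's strand, and have CCAAT boxes (letters CCAAT on either strand, so ATTGG in reverse) in capitals. The Got1 stretch is chr1:252329872-252330121 on the minus strand. It lies inside the annotated span of Got1, 252306541 to 252337622, because the annotated gene begins 7751 bases further upstream. The Got2 stretch is chr19:9180178-9180427, plus strand, directly before the gene. For Kyat3 it is chr2:234362106-234362305, plus strand, directly before the outermost annotated start. These 200 bases are the first of the 250 searched, because the start in the RefSeq table lies 50 bases further downstream.
Got1: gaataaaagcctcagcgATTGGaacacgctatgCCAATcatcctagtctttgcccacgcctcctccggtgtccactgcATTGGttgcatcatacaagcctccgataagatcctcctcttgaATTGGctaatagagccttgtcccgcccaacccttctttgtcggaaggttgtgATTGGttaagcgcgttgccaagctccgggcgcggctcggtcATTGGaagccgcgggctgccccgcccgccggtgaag
Got2: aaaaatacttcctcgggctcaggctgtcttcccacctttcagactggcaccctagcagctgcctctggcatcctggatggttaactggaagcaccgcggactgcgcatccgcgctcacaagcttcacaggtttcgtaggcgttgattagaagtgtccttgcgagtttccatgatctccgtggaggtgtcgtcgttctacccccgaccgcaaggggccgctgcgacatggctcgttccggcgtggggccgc
Kyat3: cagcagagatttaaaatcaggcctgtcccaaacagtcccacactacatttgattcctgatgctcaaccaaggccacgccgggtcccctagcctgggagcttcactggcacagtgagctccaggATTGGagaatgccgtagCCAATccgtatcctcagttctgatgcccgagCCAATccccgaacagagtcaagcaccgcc

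Of the 9 genes 8 had such a window in the RefSeq table, Bcat1 having 2, and Gpt was not matched. Within the 250 bases before the start, Got1 held 6 CCAAT boxes, the motif bound by the factor NF-Y. Kyat3 and Tat held 3 each, Oat 2, and the window at the more upstream start of Bcat1 held 1. The windows of Got2, Kyat1, Bcat2 and the other start of Bcat1 held 0. As for Got1, the starts used for Kyat1, Bcat2 and Bcat1 lie inside the annotated gene. They are 19602 (Kyat1), 3982 (Bcat2), and 685 and 33765 (Bcat1) bases from its outer end, so these counts do not describe the outermost start. Over 33465 windows of the same length in the table, 34% held at least 1 CCAAT box, 2.53% at least as many as Kyat3, and 0.033% at least as many as Got1. The other 5 motifs searched on both strands were GGGCGG (the GC box), TATAAA (the TATA box), CACGTG (the E-box bound by MYC), TGACGTCA (the cyclic AMP element) and TGATGNAA (the core of the C/EBP-ATF response element). They were present in 30.5%, 12.9%, 5.59%, 1.59% and 3.40% of all windows. GGGCGG occurred 2 times in Got1 and in Oat and 1 time in Kyat3 and Bcat2, that of Kyat3 in the 50 bases not printed, and TGATGNAA 1 time in Got1 and in Tat. The TATA box, the E-box and the cyclic AMP element had 0 matches in any member's window, and no matches overlapped each other. The motifs were chosen after the sequences had been seen, and a match describes letters only. Oat and Tat, which did not pass in the fit, also hold several CCAAT boxes, and a link between motif and difference was not tested.

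**Figure D1:**
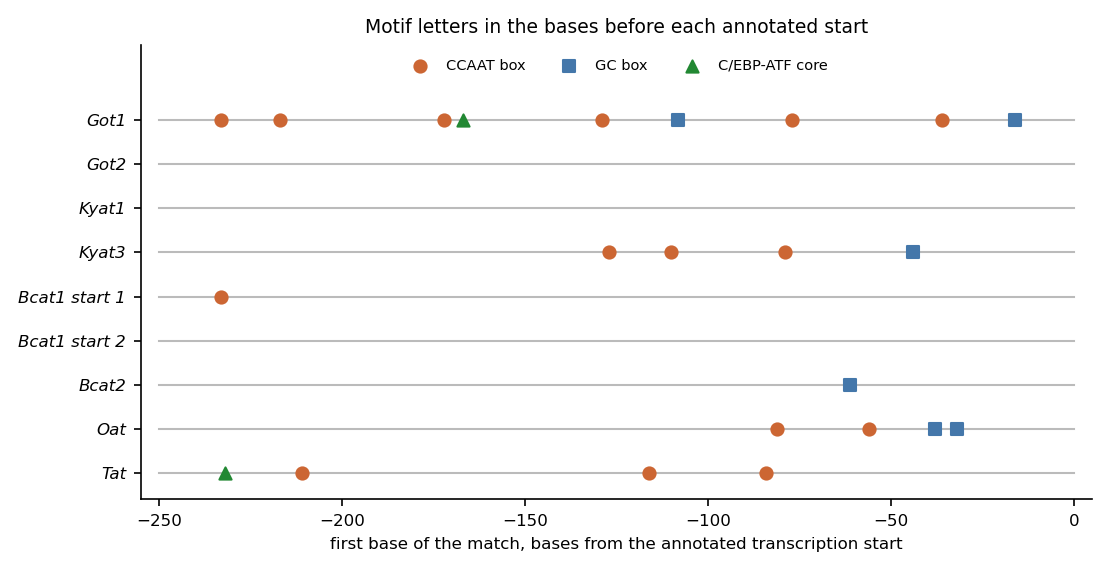
Position of each CCAAT box (circles), GC box (squares) and C/EBP-ATF core (triangles) in the 250 bases before the annotated transcription start of 8 members; the horizontal axis gives bases from the start, and Bcat1 has 2 starts. Got1 carries 6 CCAAT boxes spread over the window, while the windows of Got2 and Kyat1 carry none of the motifs drawn. The windows of Got1, Kyat1, Bcat1 and Bcat2 lie inside the annotated gene.

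Got1, the cytosolic aspartate aminotransferase, showed the largest difference of the members. Its log2 RMA values were 8.01, 8.04, 7.91 and 7.92 on vehicle arrays 1 to 4 and 8.50, 8.59, 8.47 and 8.68 on DBP arrays 1 to 4. The lowest DBP array thus lay above the highest vehicle array. The group means were 7.97 ± 0.065 and 8.56 ± 0.095 (SD, n = 4 per group), a difference of 0.59 ± 0.065 (SE), or 1.51-fold, with a 95% confidence interval of 0.45 to 0.73. Its adjusted p in limma was 0.00364 over all probe sets.

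Got2, the mitochondrial enzyme that works opposite Got1 in the shuttle, had a probe set made to its RefSeq transcript and a dimmer one made to an expressed sequence tag. The brighter read 10.35, 10.48, 10.40 and 10.45 on the vehicle arrays and 10.29, 10.48, 10.31 and 10.39 on the DBP arrays. These groups overlapped, with a difference of -0.05 ± 0.063 (SE) and an interval of -0.19 to 0.09, which lies wholly below that of Got1, although the difference between both genes was not itself tested. The dimmer one read 4.51, 4.25, 4.19 and 4.55 in vehicle and 4.05, 4.05, 4.11 and 3.99 after DBP. There every DBP array was below every vehicle array, by -0.33 ± 0.086 (SE), but its adjusted p in limma was 0.11. The 2 probe sets of Got2 therefore disagree in size, and neither passed. The dimmer one had a low signal, with a mean of 4.21 and only 23.6% of all probe sets lower.

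Kyat3, one of the kynurenine aminotransferases, was the other member that passed. Its vehicle values were 7.70, 7.64, 7.60 and 7.61 and its DBP values 8.01, 7.98, 7.97 and 7.82. DBP array 4 was the lowest of its group and still above all vehicle arrays. The mean rose from 7.64 ± 0.045 to 7.95 ± 0.085 (SD, n = 4 per group), by 0.31 ± 0.061 on the log2 scale (SE; 1.24-fold, interval 0.17 to 0.44). The adjusted p in limma was 0.045, close to the threshold. It was above the threshold without any 1 of vehicle arrays 1 to 4 (0.104, 0.116, 0.164 and 0.137) and without DBP array 1, 2 or 3 (0.0934, 0.0571 and 0.0965). Without DBP array 4 it was 0.0212, and the difference itself lay between 0.29 and 0.35 in all 8 of these fits.

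Kyat1, the related enzyme also known as glutamine transaminase K, read 8.01, 8.10, 8.09 and 8.10 in vehicle and 8.02, 8.09, 8.23 and 8.09 after DBP. The groups overlapped almost completely, and the difference was 0.03 (interval -0.10 to 0.17).

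Bcat2, the mitochondrial branched-chain enzyme, gave 8.10, 8.12, 8.07 and 8.19 on the vehicle arrays and 8.25, 8.42, 8.46 and 8.38 on the DBP arrays. Every DBP array was again above every vehicle array. The difference was 0.26 ± 0.063 (SE; 1.2-fold, interval 0.12 to 0.40), and its adjusted p in limma, 0.0889, missed the threshold. Bcat1, the cytosolic enzyme, had 2 probe sets that differed in what they showed. The brighter gave 6.03, 6.23, 6.02 and 5.85 in vehicle against 6.11, 6.21, 6.09 and 6.02 after DBP, overlapping groups with a difference of 0.08 (interval -0.11 to 0.26). The dimmer, whose name marks matches to several transcripts of the gene, gave 5.17, 5.27, 5.22 and 5.33 against 5.50, 5.38, 5.77 and 5.72. Its DBP values were all above the vehicle values, those of DBP arrays 3 and 4 most, with a difference of 0.35 ± 0.089 (SE; adjusted p = 0.104 in limma).

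**Figure D2:**
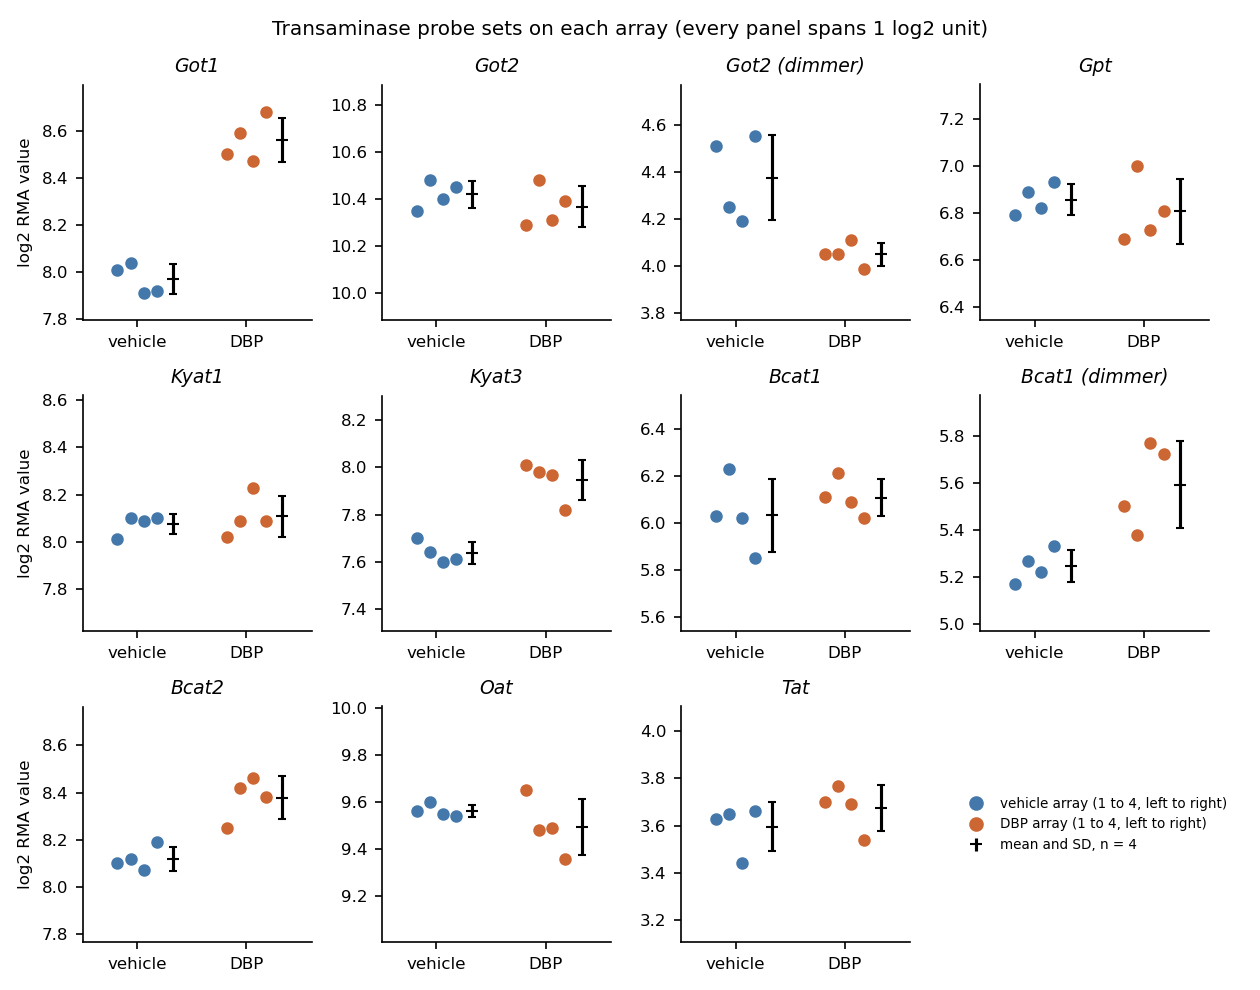
Log2 RMA values of the 11 transaminase probe sets on each of the 4 vehicle and 4 DBP arrays (points), with the group mean and SD (n = 4) beside them; each panel spans 1 log2 unit, and "dimmer" marks the second probe set of a gene. The vehicle and DBP points separate for Got1, Kyat3, Bcat2 and both dimmer probe sets and mix in the other panels.

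Counted by probe set, 5 of the 11 had groups that did not overlap, 4 with DBP above and 1 with DBP below, and 2 passed. Over all probe sets 10.9% did not overlap and 1.07% passed.

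For the remaining 3 genes the groups overlapped. Gpt, the cytosolic alanine aminotransferase, read 6.79, 6.89, 6.82 and 6.93 in vehicle and 6.69, 7.0, 6.73 and 6.81 after DBP, a difference of -0.05 (interval -0.22 to 0.12). DBP held both the highest and the lowest value. Oat, the ornithine aminotransferase, read 9.56, 9.60, 9.55 and 9.54 in vehicle and 9.65, 9.48, 9.49 and 9.36 after DBP, a difference of -0.07 (interval -0.22 to 0.08). The DBP arrays spread more widely than the vehicle arrays, with SDs of 0.12 and 0.026. Tat, the tyrosine aminotransferase, read 3.63, 3.65, 3.44 and 3.66 in vehicle and 3.70, 3.77, 3.69 and 3.54 after DBP, a difference of 0.08 (interval -0.08 to 0.24). Only 11.8% of all probe sets had a lower mean, and with no detection call in the table it cannot be said whether Tat transcript was present. Overlapping groups and such intervals do not show that these 3 genes were unaffected.

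**Figure D3:**
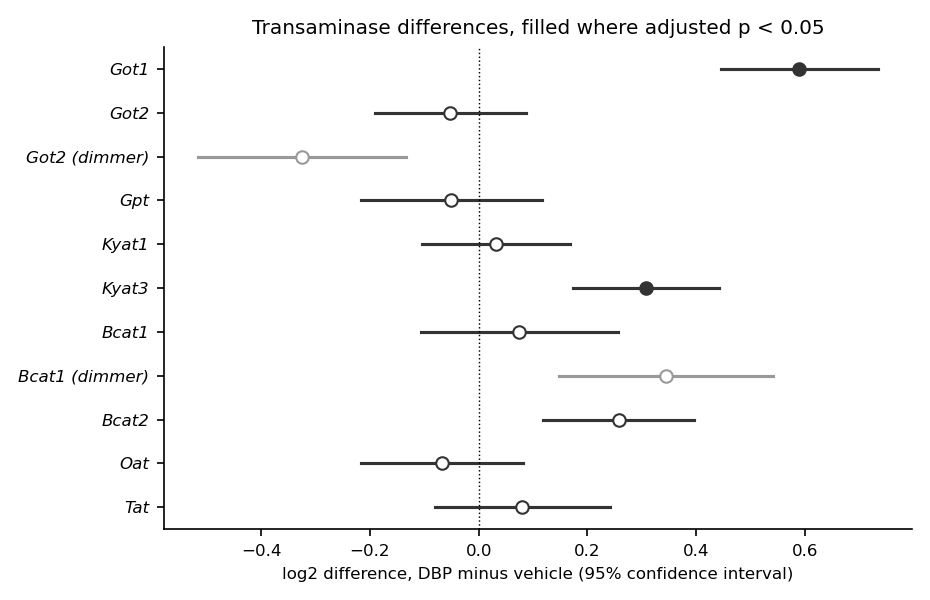
Log2 difference (DBP minus vehicle) of the 11 transaminase probe sets with 95% confidence intervals from limma, filled where the adjusted p over all probe sets is under 0.05 and grey for dimmer probe sets. Got1 stands at 0.59 and Kyat3 at 0.31, and the intervals of the brighter Got2, Gpt, Kyat1, brighter Bcat1, Oat and Tat cross 0.

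DBP arrays 3 and 4 stood apart in the signal of bacterial poly-A transcripts spiked into the RNA, with mean log2 values of 4.92 and 4.85 against 6.39 to 7.10 on the other 6 arrays. Array medians were 6.08 to 6.13 and RNA integrity numbers 8.6 to 8.8. Got1 was 0.58 higher in DBP arrays 1 and 2 alone (adjusted p = 0.00684 in limma) and 0.61 higher in arrays 3 and 4 alone (0.0073). Kyat3 was 0.36 higher in the former (0.0249) and 0.26 in the latter (0.0452), and Bcat2 0.22 (0.173) and 0.30 (0.0254). Of all 31042 probe sets 4129 passed with arrays 3 and 4 alone, 577 with arrays 1 and 2 alone and 331 with all arrays. A call in arrays 3 and 4 alone therefore says less. Oat was at 0.0025 in arrays 1 and 2 and at -0.14 in arrays 3 and 4. Among markers of testis cells, the Leydig genes Cyp17a1 and Insl3 averaged 12.64 and 11.86 in vehicle and the Sertoli hormone Amh 12.67, so defining genes of the fetal testis were present. After DBP they averaged 12.60, 11.52 and 12.62, and none of the 3 passed, with Insl3 nearest at an adjusted p of 0.0732 in limma. The other measured Leydig markers did not pass either, with Star at 0.10, Cyp11a1 at -0.125 and Lhcgr at -0.21. Of the other Sertoli markers, Inhbb was at -0.35 (adjusted p = 0.0614 in limma) and Clu at 0.25, and neither passed. Of 36 measured markers of 10 cell types 2 passed, beside 1.22% of all named genes. They were Plvap of endothelium (0.36) and Mrap of the adrenal list (-0.61). On that adrenal list Th (0.265), Dbh (0.22) and Cyp21a1 (0.03) were higher and Cyp11b1 (-0.09) lower, with a median difference of 0.03. Its mean level overlapped between the groups, at 5.63 to 5.77 in vehicle and 5.51 to 5.73 after DBP. The mean log2 level of the 3 measured endothelial markers was 7.19 to 7.23 in vehicle and 7.30 to 7.34 after DBP, without overlap. That separation came from Plvap, since the groups overlapped for Pecam1 (0.04) and Tek (-0.06), and the median difference of the list was 0.04. For the 4 erythroid markers it was 8.97 to 9.36 in vehicle, at least 9.78 in DBP arrays 1 and 2 and at most 8.99 in arrays 3 and 4. Liver markers, 4 of 5 measured, averaged 5.16 to 5.33 in vehicle and 5.27 to 5.45 after DBP. The part of these cell types in the transaminase differences was not tested.

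The enzymes that act beside the transaminases mostly did not pass the threshold. Of 79 genes in 8 lists of connected pathways 66 had a probe set, and 1 passed, Afmid, which fell. Before adjustment p was under 0.05 for 14 of the 66, of which 9 were higher and 5 lower, and 9 had groups that did not overlap. These counts stand beside the shares of 1.22%, 19.1% and 12.9% of all named genes given above.

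The 5 partners of Got1 and Got2 in the malate-aspartate shuttle, the malate dehydrogenases Mdh1 and Mdh2 and the carriers Slc25a11, Slc25a12 and Slc25a13, gave 0 past the threshold and 0 with an unadjusted p under 0.05 in limma. Their differences lay between -0.11 (Slc25a12) and 0.09 (Slc25a13), with a median of 0.00.

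In the kynurenine pathway, around Kyat1 and Kyat3, 8 of 9 genes had a probe set and 1 passed. Several had a low signal, Tdo2 the lowest, with a mean of 3.07 and 1.77% of all probe sets lower. As for Tat, it cannot be said whether such transcripts were present. Afmid, the formamidase that makes kynurenine, fell by 0.47 on the log2 scale (SE 0.094; adjusted p = 0.0471 in limma). Its brightest probe set read 6.93, 7.13, 7.10 and 6.85 in vehicle and 6.73, 6.39, 6.61 and 6.41 after DBP, with no overlap. The other 2 probe sets of Afmid fell as well, by 0.38 (adjusted p = 0.0388) and 0.51 (0.00517). That of the brightest was above the threshold without any 1 of the vehicle arrays or without DBP array 2, 3 or 4, at 0.0599 to 0.165, and in DBP arrays 1 and 2 alone (-0.44, 0.0982). With arrays shifted to the same median it was 0.0622.

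Among 18 genes of branched-chain breakdown downstream of Bcat1 and Bcat2, limma passed 0, and 3 were under 0.05 before adjustment, of which 2 were higher and 1 lower. The smallest p belonged to Hibadh, the 3-hydroxyisobutyrate dehydrogenase of valine breakdown (0.20 ± 0.056, SE; adjusted p = 0.121), and Auh, a hydratase of leucine breakdown (0.16; 0.252). Hibadh values were 10.45 to 10.52 in vehicle and 10.61 to 10.77 after DBP. Of the 18 differences, which ran from -0.44 to 0.20, 12 were below 0 and 6 above, with a median of -0.06.

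Around Oat, 10 of 12 genes of ornithine and proline metabolism were measured. In limma 0 passed and 4 were under 0.05 before adjustment, of which 2 were higher and 2 lower. Groups did not overlap for 5 genes, 3 with DBP above and 2 with DBP below, beside 12.9% of all named genes. The 2 higher genes were Arg2, an arginase like Arg1 (0.175), and Otc (0.235), each with every DBP array above every vehicle array. Otc had a low signal, with 11.6% of all probe sets lower. Arg1, an arginase, which makes ornithine, had the largest difference of all the pathway genes, -0.59 ± 0.13 (SE, adjusted p = 0.0629 in limma). Its values were 6.08, 5.75, 5.89 and 5.66 in vehicle and 5.49, 5.41, 5.21 and 4.93 after DBP, without overlap, and it was -0.40 in DBP arrays 1 and 2 and -0.78 in arrays 3 and 4. Its adjusted p was under the threshold in arrays 3 and 4 alone (0.0123), where 4129 of all probe sets passed. It was also under it with a trended and robust prior (0.0436) and with the replicate number as a block (0.0294). These 3 settings were among the 22 alternatives that kept Arg1. In the other 19 it did not pass, with an adjusted p of up to 0.2. In DBP arrays 1 and 2 alone it was 0.122. Prodh, proline dehydrogenase, had the next smallest p of the list (-0.23 ± 0.065, SE; adjusted p = 0.12), and its dimmer probe set was at 0.05.

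Other aminotransferases gave 0 past the threshold among 10 measured of 14. Gpt2, the mitochondrial alanine aminotransferase and partner of Gpt, came nearest. Its brighter probe set read 8.04, 8.02, 8.10 and 8.03 in vehicle and 8.32, 8.52, 8.42 and 8.25 after DBP, which did not overlap. The difference was 0.33 ± 0.068 (SE; 1.26-fold) with an adjusted p of 0.0516 in limma, and the dimmer probe set was at 0.43 (0.135). With signal filters, median or quantile scaling, a trended prior or array weights the adjusted p of Gpt2 was under the threshold (0.0231 to 0.0421). The same held in DBP arrays 1 and 2 (0.0393) and in 3 and 4 (0.0345) alone, and without DBP array 4 (0.0283). These were 9 of 23 alternatives, and in the others Gpt2 did not pass. In the fit with DBP arrays 3 and 4 alone 4129 of all probe sets passed. The adjusted p of Gpt2 was 0.13 to 0.15 without any 1 vehicle array, 0.123 with unmoderated statistics and 0.0945 with the replicate block. With RNA integrity as a covariate it was 0.0733. Got1l1, a relative of Got1, read 3.85 to 4.12 in vehicle and 4.08 to 4.46 after DBP (0.33, adjusted p = 0.111). Its signal was low too, with 22.2% of all probe sets having a lower mean. Before adjustment p was under 0.05 in limma for 2 genes of this list, Gpt2 and Got1l1.

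The 3 remaining lists also had 0 past the threshold in limma. Of 5 measured genes of phenylalanine and tyrosine breakdown, 1 was under 0.05 before adjustment. It was Hpd, the dioxygenase that acts on the product of Tat (0.34 ± 0.087, SE, adjusted p = 0.105 in limma). Hgd, the next dioxygenase, was at 0.09, with a low signal and only 11.5% of all probe sets lower. Of 8 glutamate and glutamine genes 1 was under 0.05 before adjustment, Asns, asparagine synthetase (0.19, adjusted p = 0.185 in limma). Glud1, glutamate dehydrogenase, was at -0.12 (0.347) by its brighter probe set, where the groups overlapped. Its dimmer probe set was at -0.185 (0.166), with every DBP array below every vehicle array. Both measured genes of pyridoxal phosphate supply, Alpl (0.15) and Plpbp (0.03), had larger p-values.

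**Figure D4:**
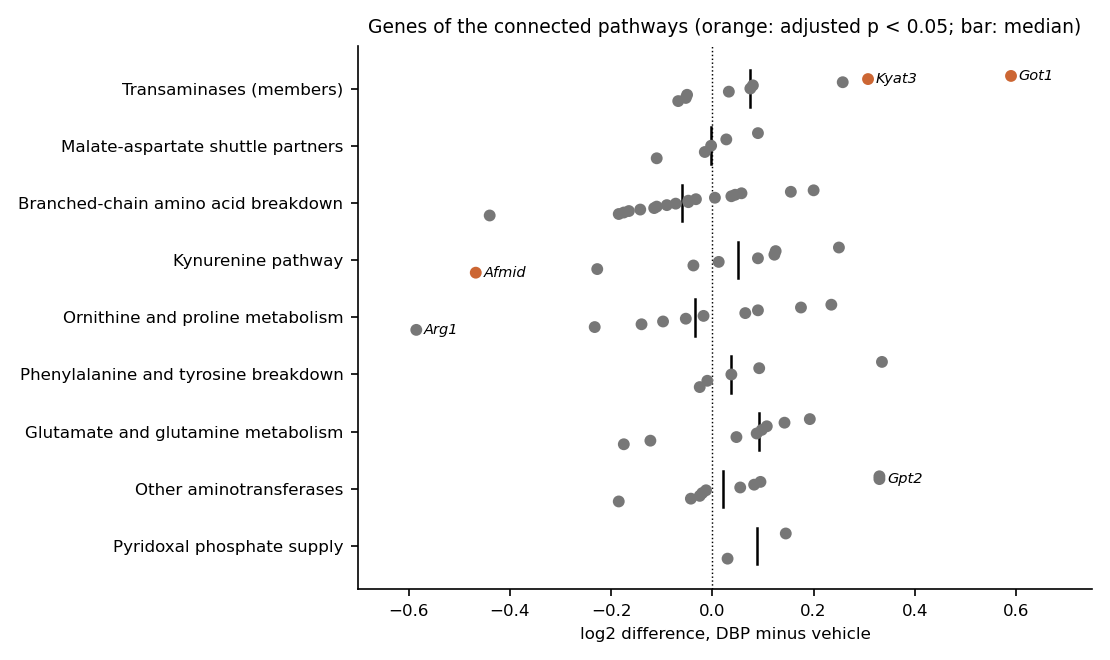
Log2 difference (DBP minus vehicle) of the brightest probe set of each measured gene in the 9 transaminases and in 8 lists of connected pathways (points), with the list median (bar); orange marks an adjusted p under 0.05 in limma. Got1 and Kyat3 lie to the right and Afmid to the left. Arg1 and Gpt2, which did not pass (adjusted p = 0.0629 and 0.0516 in limma), are also named.

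The genes whose log2 values ran most closely with Got1 over the 8 arrays were Mpzl2, a cell adhesion protein (Pearson r = 0.990), Chchd4l1 (0.990) and Gatm, the amidinotransferase that starts creatine synthesis and releases ornithine (0.985). Their own differences were 0.42, 0.97 and 0.69, with adjusted p of 0.0132, 0.0034 and 0.00912 in limma. Mpzl2 read 9.45 to 9.50 in vehicle and 9.80 to 10.04 after DBP, and Gatm, at its brighter probe set, 8.38 to 8.53 and 9.0 to 9.40. The dimmer Gatm probe set was at 0.01. For Kyat3 they were Polr3k, a subunit of RNA polymerase III (0.989), Zfp422, a zinc finger protein (0.988), and Glrx5, a mitochondrial glutaredoxin (0.984). None of these 3 passed, with differences of 0.10, 0.11 and 0.24, and the dimmer Zfp422 probe set was at -0.42. All points share the same 8 arrays and 2 groups, and the 3 closest of 14217 genes were taken for each, so these values only describe which profiles were alike.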

How the data were processed

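RNA of fetal testes was hybridised to 1 Affymetrix array per sample. Each array has 1 log2 value per probe set, deposited to 2 decimals, which RMA produced according to the submitters' processing notes; no RMA version is stated. RMA scales arrays to each other, so a shift shared by most transcripts would not be seen. Of 31099 probe sets 57 controls were set aside and 31042 tested, of which 20826 named 1 gene, 436 several and 9780 none in the platform annotation. A gene was represented by its probe set with the highest mean over all arrays. Groups were compared with limma 3.58.1 (R 4.3.3; lmFit and eBayes, two-sided, Benjamini-Hochberg over all probe sets, threshold 0.05), a procedure tested on simulated data, and intervals are 95% intervals of that fit. No pair of the 8 arrays held identical values. Their number limits the precision, and p-values set each difference against the spread between these arrays, with a prior shared over all probe sets. Promoter windows and gene spans are from RefSeq tables of GRCr8, matched by symbol, and were searched with Python 3.11.15. The members, the pathway lists and the motifs were chosen with earlier results of these data known. Named besides the members were, per list, the genes past the threshold or else the 2 with the smallest p. The 3 genes most correlated with each member that passed were also named. Mdh1, Mdh2 and Slc25a11, which complete the shuttle list, and Arg2, Otc and Tdo2 were named after their values were seen. Markers were named where they passed or defined the tissue, together with the other measured members of those lists. Alternatives covered filters, scaling, the prior, unmoderated statistics, the replicate number as a block, RNA integrity, array weights, spike-in signal, the probe set used and leaving out each array; the use of DBP arrays 3 and 4 alone and of the dimmer probe sets was added after the data were seen.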

Additional observations from a re-analysis of the deposited data

Results flagged for a closer look

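The 26 probe sets of the members and of the pathway genes named by p were examined. In each group of 4 arrays a value far from the other 3 was sought. Of 52 such groups 2 held one, where chance gives about 1 in 20. The Kyat1 value of vehicle replicate 1 was 8.01, against 8.09 to 8.10 on the other vehicle arrays. The Tat value of vehicle replicate 3 was 3.44, against 3.63 to 3.66, for a probe set of very low signal. The Got1 and Kyat3 groups held no such value.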

How the results depend on the processing

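Of 23 alternatives Got1 passed in all 23, with a difference of 0.55 to 0.63 and an adjusted p in limma of 0.000944 to 0.0393. Kyat3 passed in 13, at 0.26 to 0.36, with an adjusted p of 0.0173 to 0.164. The number of transaminase genes past the threshold was 2, with Got1 and Kyat3; it was 1, Got1, with unmoderated statistics, with RNA integrity as a covariate and with the replicate block, and 1 to 2 when leaving out 1 array. With the replicate block the adjusted p of Kyat3 was 0.0859 and 175 of all probe sets passed; same-numbered arrays did not deviate together (correlations of 0.11, -0.08, 0.10 and -0.02), and 2 of 4 vehicle arrays matched their own number best, so the numbers are not read as pairs. DBP arrays 3 and 4 alone gave 3, with Bcat2 added. Differences near 0 changed sign: Gpt to 0.0125 with RNA integrity, Kyat1 to -0.02, Oat to 0.0025 and Slc25a12 to 0.015 with the spike-in term or DBP arrays 1 and 2 alone, and Zfp422 to -0.16 as the mean of its probe sets. Leaving out 1 array, Kyat1 ranged from -0.0083 to 0.0617 and Plpbp from -0.0017 to 0.0617. Calls of Mpzl2, Chchd4l1 and Gatm were lost in 6, 1 and 2 alternatives, that of Afmid in 14. The count over all probe sets, 331, was 74 with unmoderated statistics, 577 and 4129 with DBP arrays 1 and 2 or 3 and 4 alone, and 82 to 606 without 1 array. The causes were not tested. Both filters on signal leave out Tat, and the filter at the median also leaves out Bcat1.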
